A study of Mus musculus with 8 samples.

Results

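The subject here is a list of 10 genes of adenosine and purinergic signalling: Adora1, Adora2a, Adora2b, Adora3, Entpd1, Nt5e, Ada, P2rx4, P2rx7 and P2ry14. Each was found in the deposited table through its RefSeq accession, with the brightest row on average over the 8 arrays to be taken if a symbol had several. A row was matched for 9 of the 10 genes, out of 24625 rows in all, and each of the 9 had a single row. Adora3, an adenosine receptor, was not matched and is not analysed here. The genes were selected on their function together with the SP minus PBS differences in log2 expression that these same 8 arrays had shown, so those differences are given as a description, with no test.

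The arrays measured messenger RNA of neutrophils from the lungs of wild type (WT) mice, of the C57BL/6J strain by the methods and 6 to 12 weeks old by the labels. The left lung had received, by the intratracheal route and 24 h earlier, Streptococcus pneumoniae (SP), which causes bacterial pneumonia, in 4 samples and phosphate-buffered saline (PBS) in 4, in a volume of 2.3 µl for each gram of mouse. Neutrophils were bound from enzymatically digested lungs by magnetic beads against Ly6G, and the study examined the purity of the cells in the pneumonia samples only. It describes high purity there, with few other cells, usually like alveolar macrophages, and high Ly6G mRNA in all samples. The labels number the samples, and the study describes each as coming from a mouse. The values are log2 expression as the authors normalised it, so that a difference of 1 is 2-fold, and the number of arrays limits their precision.

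Adenosine triphosphate (ATP) that leaves damaged or activated cells is a danger signal. It opens P2X ion channels and, with other nucleotides, activates P2Y receptors, which are coupled to G proteins. The ectoenzyme CD39 (Entpd1) removes phosphates from ATP and ADP, and CD73 (Nt5e) turns the resulting AMP into adenosine. Adenosine then acts on its own G protein-coupled receptors until it is taken up by transporters or deaminated by adenosine deaminase (Ada). The receptors encoded by Adora2a and Adora2b raise cyclic AMP, and the former is well known for restraining the oxidative burst and adhesion of neutrophils, whereas those encoded by Adora1 and Adora3 lower cyclic AMP.

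Neutrophil samples from lungs with pneumonia carried far more mRNA of 2 adenosine receptors and of the receptor for UDP-sugars, while the levels of Entpd1, Nt5e and Ada, the 3 enzymes of adenosine turnover on the list, overlapped between the groups. Adora2a was 17.9-fold, Adora2b 8.80-fold and P2ry14 5.32-fold higher in SP than in PBS, and in each of these the 4 SP arrays lay above the 4 PBS arrays. In the other 6 genes the groups overlapped, with differences from -0.07 (Nt5e) to 0.59 (P2rx7) log2 units. These are bulk samples, in which fewer cells of a type and less RNA per cell cannot be told apart. The median difference of the 9 genes was 0.46 log2 units, against 0.10 for all rows of the table. In the limma fit across all rows, 3 of the 9 passed an adjusted p of 0.05 as higher in SP, beside 21.5% of all rows, and none was called lower, beside 22.6% (44.1% in either direction). The same 3 passed with at least a 2-fold difference, beside 6.37% of all rows higher and 11.3% lower (17.6% in all), and the same 3 had no overlap between groups, beside 27.2% of all rows with SP higher and 21.8% with SP lower (49.0% in all). The list was drawn up with this comparison known, and nothing is read from these counts.

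**Figure D1:**
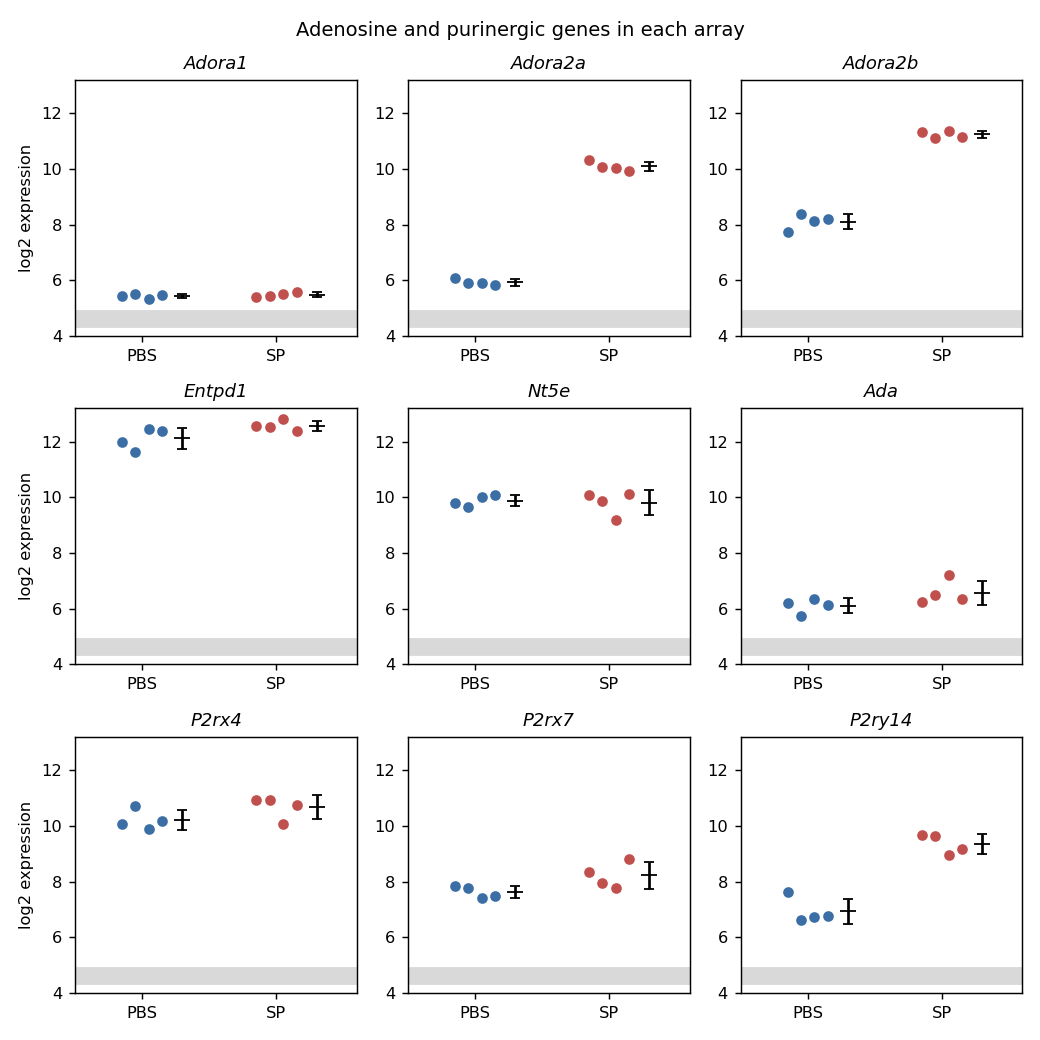
Log2 expression (y axis) of the 9 measured adenosine and purinergic genes in the 4 PBS arrays (blue) and the 4 SP arrays (red), with replicates 1 to 4 from left to right and the mean ± SD in black. The grey band is the range of 3 Y-linked rows over all arrays (4.33 to 4.90), and the SP points lie wholly above the PBS points in Adora2a, Adora2b and P2ry14.

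Of the adenosine receptors, Adora2a (NM_009630), the high-affinity receptor that couples to stimulation of adenylyl cyclase, showed the widest separation. Its log2 values in PBS replicates 1 to 4 were 6.09, 5.89, 5.89 and 5.81, and those in SP replicates 1 to 4 were 10.32, 10.08, 10.02 and 9.93. The lowest SP array thus lay 3.84 log2 units above the highest PBS array. The means were 5.92 ± 0.12 and 10.09 ± 0.17 (SD, n = 4 each), a difference of 4.16 log2 units with a standard error of 0.10. The Y-linked rows Ddx3y, Kdm5d and Uty, which were low in all arrays and served as a measure of background, ranged from 4.33 to 4.90, below every Adora2a value. They were themselves slightly higher in SP, by 0.12, 0.19 and 0.18 log2 units. Kdm5d was narrowly called (adjusted p = 0.0497 by limma), so small rises near this level say little.

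Adora2b (NM_007413), the low-affinity receptor that responds when adenosine is abundant, had PBS values of 7.75, 8.38, 8.11 and 8.19 and SP values of 11.34, 11.12, 11.37 and 11.16. All SP values were at least 2.73 log2 units above every PBS value. The means were 8.11 ± 0.27 and 11.25 ± 0.13 (SD, n = 4 each), which differ by 3.14 with a standard error of 0.14. In both receptors the spread between SP arrays was small against the distance between the groups.

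Adora1 (NM_001008533), the receptor that inhibits adenylyl cyclase, lay low in every sample. It ranged from 5.34 to 5.50 in PBS and from 5.38 to 5.59 in SP. The means of 5.44 ± 0.07 and 5.47 ± 0.09 (SD, n = 4 each) differed by 0.04 with a standard error of 0.08, and the groups overlapped almost completely. All its values were close above the range of the Y-linked rows.

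The enzymes that produce adenosine outside the cell were well above background in both groups. Entpd1 (NM_009848), which encodes CD39, had PBS values of 12.00, 11.63, 12.44 and 12.40 and SP values of 12.55, 12.52, 12.81 and 12.38. SP replicate 4 lay inside the PBS range and the other 3 SP arrays above it. The means of 12.12 ± 0.38 and 12.56 ± 0.18 (SD, n = 4 each) differed by 0.45, with a standard error of 0.19. Nt5e (NM_011851), which encodes CD73, had PBS values of 9.78, 9.65, 10.03 and 10.07 and SP values of 10.10, 9.86, 9.17 and 10.12. The low value was that of SP replicate 3, and the remaining SP arrays were spread over the PBS range and just above it. Its means were 9.88 ± 0.20 and 9.81 ± 0.44 (SD, n = 4 each), and the difference of -0.07 was smaller than its standard error of 0.21.

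Ada (NM_001272052), which encodes the enzyme that deaminates adenosine to inosine, had low levels. Its PBS values were 6.21, 5.75, 6.35 and 6.15 and its SP values 6.25, 6.50, 7.21 and 6.33. SP replicate 3 was the highest, and PBS replicate 2 the lowest. The means of 6.11 ± 0.26 and 6.57 ± 0.43 (SD, n = 4 each) differed by 0.46 with a standard error of 0.22. In these enzymes of adenosine turnover the largest difference was thus the 1.37-fold higher mean of Ada, with overlapping groups.

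P2rx4 and P2rx7 are neighbouring genes that encode ATP-gated cation channels, the second of which needs high ATP and is known for its part in the release of interleukin-1β. P2rx4 (NM_011026) had PBS values of 10.08, 10.73, 9.88 and 10.16 and SP values of 10.94, 10.94, 10.06 and 10.75. The groups overlapped through the high PBS replicate 2 and the low SP replicate 3. The means were 10.21 ± 0.36 and 10.67 ± 0.42 (SD, n = 4 each), with a difference of 0.46 and a standard error of 0.24. P2rx7 (NM_001038839) had PBS values of 7.83, 7.78, 7.42 and 7.48 and SP values of 8.35, 7.95, 7.75 and 8.82. Only SP replicate 3 fell inside the PBS range. Its means were 7.63 ± 0.21 and 8.22 ± 0.47 (SD, n = 4 each), a difference of 0.59 with a standard error of 0.23. Without SP replicate 3 the groups no longer overlapped in either channel, and the differences were 0.67 for P2rx4 and 0.74 for P2rx7. Leaving out other arrays made them smaller, down to 0.35 for P2rx4 without PBS replicate 3 and 0.39 for P2rx7 without SP replicate 4.

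P2ry14 (NM_001008497) encodes the receptor for UDP-glucose and related UDP-sugars, known from neutrophil chemotaxis. Its PBS values were 7.61, 6.64, 6.74 and 6.77, with replicate 1 above the rest, and its SP values were 9.65, 9.63, 8.94 and 9.18. The lowest SP array was 1.33 log2 units above the highest PBS array. The means of 6.94 ± 0.45 and 9.35 ± 0.35 (SD, n = 4 each) differed by 2.41, with a standard error of 0.25. Without PBS replicate 1 the difference was 2.63.

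Promoter windows from RefSeq (GRCm38.p6, 250 bases before to 50 after a transcript start) existed for 9 of the 10 genes, Adora2a being the exception, with 15 windows in all. They were searched on both strands for short binding motifs of factors active in inflammation, and a match says only that these letters occur there. The AP-1 motif TGANTCA occurred in 5 of the 15 windows, beside 7.81% of the 32851 windows of all genes. The 4 genes with it were Adora1, Adora3, P2rx7 and P2ry14. Of these, Adora1 differed by only 0.04 log2 units between the groups and Adora3 was not measured. The motif is shown in capitals for P2ry14 and P2rx7.
P2ry14, GRCm38.p6 chr3:59153679-59153702, minus strand, position -202 from the start: tgtttgtaTGACTCAtggagggaa
P2ry14, GRCm38.p6 chr3:59131457-59131480, minus strand, position -144 from another start: aaaccatgTGAATCAaaactttaa
P2rx7, GRCm38.p6 chr5:122643677-122643700, plus strand, position -249 from the start: cTGAGTCAcactgggtcttacaac

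The short cyclic AMP response motif TGACG occurred in 3 windows, of P2rx4 and Entpd1, beside 20.8% of all windows. It is shown for Entpd1, where the capitals give the motif on the opposite strand (CGTCA).
Entpd1, GRCm38.p6 chr19:40612222-40612245, plus strand, position -135 from the start: cgcgtacttCGTCAtcagcttccg
The single window of Adora2b held none of the 6 motifs searched, which were those above, the NF-κB motif (1.47% of all windows), the hypoxia response core ACGTG (19.6%), the interferon response motif (3.44%) and the GAS motif TTCNNNGAA (8.30%). The cyclic AMP motif and the hypoxia core share letters and can overlap. The NF-κB and GAS motifs each occurred in 1 window, that of Ada, the hypoxia core in 1, of Adora1, and the interferon response motif in none.

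The median SD of the 9 genes within a group was 0.26 in PBS and 0.35 in SP, against 0.13 and 0.18 for all rows. SP replicate 3 was the array farthest from its group's median in 5 of the 9 genes, and in 54.5% of all rows. It was the lowest SP array for 4 genes (Nt5e, P2rx4, P2rx7 and P2ry14) and the highest for 3 (Adora2b, Entpd1 and Ada). PBS replicate 2 was the farthest PBS array in 4 of the 9, and in 44.6% of all rows.

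The size of the smaller differences depended on how the arrays were scaled. The medians of the SP arrays were on average 0.28 log2 units below those of the PBS arrays, and centring each array on its median added that amount to every difference and moved the median of all rows from 0.10 to 0.38. With centred arrays 8 of the 9 genes were called higher in SP, all but Nt5e, in place of 3, beside 57.7% of all rows in place of 21.5%. With another quantile normalization 5 were called (Ada and P2rx7 in addition), beside 19.6% of all rows. With array weights 5 were called (P2rx4 and P2rx7 in addition), beside 29.0%, and without SP replicate 3 the same 5, beside 21.5%. Adora2a stayed between 4.09 and 4.45, Adora2b between 3.02 and 3.42 and P2ry14 between 2.31 and 2.69 log2 units under all 17 alternatives. Nt5e and Adora1 had no stable sign, since Nt5e ran from -0.17 to 0.21 and Adora1 from -0.0020 to 0.32.

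**Figure D2:**
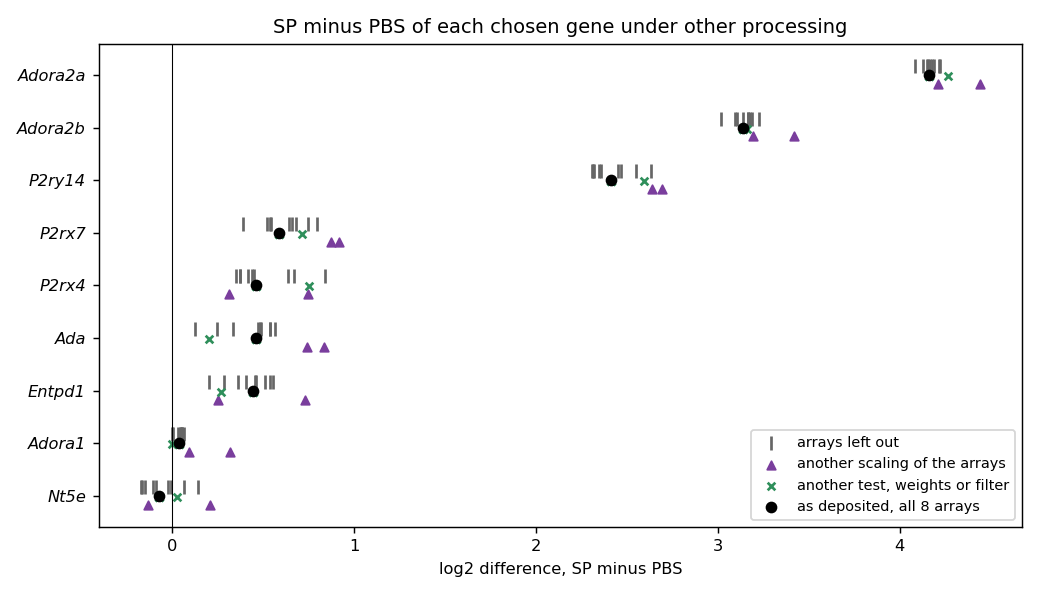
SP minus PBS difference in log2 units (x axis) of each of the 9 genes as deposited (black), with arrays left out (grey), with another scaling of the arrays (purple) and with another test, weights or filter (green). Adora2a, Adora2b and P2ry14 lie beyond 2 log2 units throughout, P2rx7, P2rx4, Ada and Entpd1 lie above 0 and below 1, and Adora1 and Nt5e fall on both sides of 0.

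The rows whose values over the 8 arrays were most like those of Adora2a were Ikbke, Slfn5 and 4930599N23Rik, each with a Pearson correlation of 0.999 across 19835 other symbols compared. The 8 points fall into the PBS and the SP group, so the coefficient mostly reports that these rows are separated and even within groups, and 347 rows reached 0.98. Their own SP minus PBS differences were 4.95, 2.64 and 4.97 log2 units. For Nt5e, which had the lowest difference, the closest rows were Ctr9 (0.941), Mir463 (0.936) and Ints9 (0.934).

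The rest of the pathway was described with 79 further genes in 7 lists, of which 78 had a matched row (Pde4a did not), and these were tested. Since these lists too were drawn up with earlier results of these data known, their counts are a description. The nucleotide receptors P2ry2 and P2ry6 and the purine enzyme Pnp rose, and the enzymes Enpp2 and Entpd5, the adenosine kinase Adk and the peptidase Dpp4 fell. By limma with Benjamini-Hochberg adjustment over all rows, 16 of the 78 rose (20.5%, beside 21.5% of all rows) and 33 fell (42.3%, beside 22.6%). With at least a 2-fold difference 11 rose (14.1%, beside 6.37%) and 15 fell (19.2%, beside 11.3%). Their median difference was -0.20 log2 units, against 0.10 for all rows. With centred arrays 30 rose, beside 57.7% of all rows, and 23 fell, beside 16.4%, with 15 rises (9.64% of all rows) and 11 falls (7.70%) of at least 2-fold. With another quantile normalization 9 rose at least 2-fold, beside 7.63% of all rows, and 9 fell, beside 8.93%. With dim rows left out 14 rose, beside 24.1% of the rows kept, and 27 fell, beside 36.2%. Of these, 12 rises (11.7% of the rows kept) and 15 falls (20.2%) were at least 2-fold. The count of 16 rises was 10 without PBS replicate 1 and 10 without SP replicate 1. The 11 rises of at least 2-fold numbered 6 without SP replicate 1, and 7 without SP replicate 2, as without either of PBS replicates 1 and 2.

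Of 7 other P2Y receptors, 3 rose at least 2-fold and P2ry1 and P2ry10 fell by less. P2ry2, the receptor for ATP and UTP, had PBS values of 8.53, 7.91, 9.22 and 9.32 and SP values of 11.48, 11.48, 11.16 and 11.17. All its SP arrays were above all PBS arrays, and it rose 5.97-fold (2.58 ± 0.30 log2 units, difference ± SE, adjusted p = 0.000255 by limma). P2ry6, the receptor for UDP, rose 4.55-fold, from 7.83 ± 0.30 to 10.01 ± 0.52 (SD, n = 4 each, adjusted p = 0.000311 by limma). P2ry13, a receptor for ADP, had PBS values of 10.85, 9.35, 11.37 and 11.33 and SP values from 11.66 to 12.02. Its 2.23-fold rise was narrowly called (adjusted p = 0.0497 by limma), the low PBS replicate 2 widened the spread, and the call was lost under 8 of 17 alternatives. Of the other 5 P2X channels none rose and P2rx5 and P2rx6 fell, P2rx5 by less than 2-fold and with overlapping groups. P2rx6 fell 5.26-fold, from 7.98 ± 0.51 to 5.58 ± 0.12 (SD, n = 4 each, adjusted p = 0.000101 by limma).

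Among 15 other genes of ectonucleotidases and related enzymes, 3 rose and 8 fell, 2 and 6 of them at least 2-fold. Not all of these enzymes act at the cell surface. Cd38, which consumes NAD, rose 2.10-fold (adjusted p = 0.0195 by limma), from 10.27 ± 0.13 to 11.34 ± 0.67 (SD, n = 4 each), and Enpp4, a hydrolase of dinucleotides, rose 2.06-fold (0.00556). Bst1, a relative of Cd38 and the member of this list with the highest mean, rose 1.58-fold (0.0416), a call lost under 8 of 17 alternatives. Enpp2, the secreted enzyme autotaxin that makes lysophosphatidic acid, fell 5.10-fold (9.4e-05 by limma), from 8.95 ± 0.40 to 6.60 ± 0.30. Entpd5, a nucleoside diphosphatase of the endoplasmic reticulum, fell 3.72-fold (1.29e-05), with PBS values from 9.31 to 9.61 and SP values from 7.37 to 7.75.

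Of 7 nucleoside transporters, 2 rose (Slc29a2 and Slc29a3) and 2 fell (Slc28a3 and Slc29a1). Slc29a3, an equilibrative transporter of lysosomes, was the only one called at 2-fold, with a 2.06-fold rise (adjusted p = 0.0226 by limma) that was lost under 5 of 17 alternatives. Its SP replicate 3 (8.44) lay inside the PBS range of 8.14 to 8.59, while the other SP arrays were at 9.53 to 9.91. The concentrative transporter Slc28a2 had the highest mean of the list and was not called, with 9.88 ± 0.58 and 10.28 ± 0.20 (SD, n = 4 each, limma adjusted p = 0.232), except with centred arrays (adjusted p = 0.0471).

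Of 19 enzymes and binding partners of purine metabolism, 4 rose (Pnp, Nt5c3, Aprt and Ampd1) and 8 fell, 2 and 3 of them at least 2-fold. Pnp, which splits inosine to hypoxanthine one step after adenosine deaminase, had PBS values of 10.05, 9.84, 10.34 and 10.12 and SP values of 12.35, 12.17, 12.27 and 12.36. The groups were about 2 units apart with little spread, and it rose 4.59-fold (adjusted p = 5.96e-06 by limma). Nt5c3, a cytosolic nucleotidase that prefers pyrimidines, rose 3.81-fold (0.000658). Adk, the kinase that returns adenosine to AMP, fell 4.11-fold (0.000396), with PBS values of 9.48, 9.59, 9.30 and 9.16 and SP values of 7.34, 7.24, 6.73 and 8.07. Dpp4, a surface peptidase that binds adenosine deaminase in humans, fell 6.49-fold from 10.54 ± 0.24 to 7.84 ± 0.59 (SD, n = 4 each, adjusted p = 0.000149 by limma). Gda, a guanine deaminase and the gene with the highest mean here, fell 1.48-fold (0.0178), a call lost with centred arrays (-0.28 log2 units, 0.183) and without PBS replicate 4 (0.0504).

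Of 7 genes of nucleotide release, 2 rose (Lrrc8d and Panx2) and 3 fell (Gja1, Slc17a9 and Calhm2). Lrrc8d, a subunit of volume-regulated anion channels with the highest mean of this list, rose 2.02-fold (adjusted p = 0.00246 by limma) and Gja1, the gap junction protein connexin 43, fell 2.18-fold (0.0217). The Gja1 call was lost under 5 of 17 alternatives. Panx1, the channel through which ATP leaves many cells, was not called (5.93 ± 0.10 and 6.17 ± 0.19, SD, n = 4 each, adjusted p = 0.104 by limma), and it was picked for mention after its values were seen. Of 18 genes of cyclic AMP signalling below the adenosine receptors, 2 rose and 8 fell, 2 and 4 of them at least 2-fold. Pde4d, a phosphodiesterase that degrades cyclic AMP, rose 2.68-fold (0.00174), from values of 7.62 to 7.98 in PBS to 8.90 to 10.02 in SP. Crem, a transcription factor gene that cyclic AMP itself induces, rose 2.05-fold (0.0376), a call lost under 8 of 17 alternatives. The adenylyl cyclases Adcy6 and Adcy9 fell 3.17-fold (0.000537) and 2.62-fold (0.000397). Gnai2, the inhibitory G protein subunit with the highest mean of the list, was not called (12.51 ± 0.14 and 12.43 ± 0.03, SD, n = 4 each, 0.433), and its difference of -0.08 turned to 0.20 with centred arrays. With another quantile normalization Gnai2 was called lower (-0.29 log2 units, adjusted p = 0.00864 by limma).

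**Figure D3:**
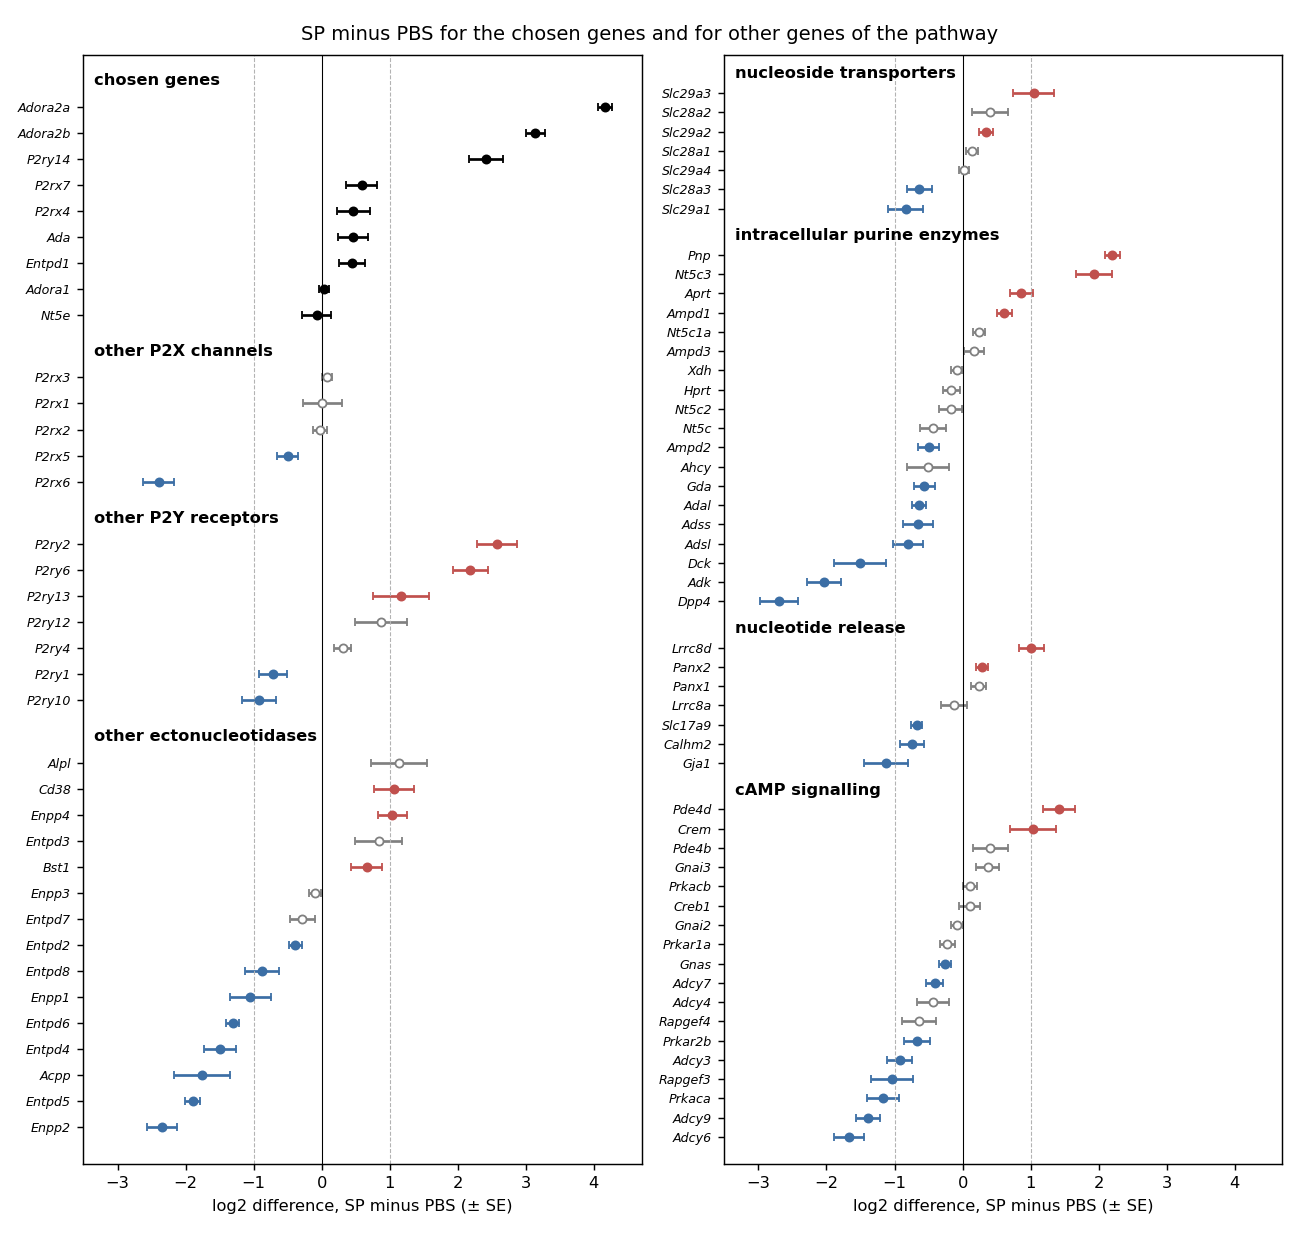
SP minus PBS difference in log2 units with its standard error (x axis) for the 9 chosen genes (black, no test) and for 78 other genes of the pathway in 7 lists, in red where the gene rose and in blue where it fell at an adjusted p of 0.05 by limma, and in open grey where it was not called. Dashed lines mark 2-fold, and blue points outnumber red ones, 33 to 16.

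Markers of the isolated cells and of other lung cells were measured beside these genes. Both groups had high levels of neutrophil markers. The summed level of 13 genes ranged from 16.18 to 16.37 in PBS and from 15.72 to 16.44 in SP on the log2 scale. SP replicates 1, 2 and 4 (15.86, 15.72 and 15.97) lay below every PBS array, and SP replicate 3 (16.44) lay above them all. Mpo and Elane were called higher and Retnlg, Mmp8 and Mmp9 lower, none at 2-fold. Only Elane, a gene of early precursors, was no higher than the Y-linked rows (4.90) in all arrays. Mpo was as low as the Y-linked rows in PBS (4.31 to 4.59), and Elane rose by only 0.20 log2 units. Markers of epithelium and endothelium were present and lower in SP. All 9 alveolar and all 7 airway epithelial markers and 9 of 10 endothelial markers fell, and their summed levels in PBS and SP were 15.22 to 15.71 and 13.59 to 14.77, 15.08 to 15.45 and 13.66 to 13.98, and 13.91 to 14.87 and 12.53 to 13.43, without overlap. All 6 B cell markers (10.73 to 11.69 and 8.62 to 10.03) and 4 of 7 alveolar macrophage markers (Car4, Ear1, Ear2 and Krt79, with summed levels of 13.02 to 13.82 and 12.53 to 13.14 for the list) fell as well, while Chil3 rose. Each marker of these 5 lists was above the Y-linked rows in at least 1 array. These lists moved the same way as Enpp2, Dpp4, Gja1, Entpd5, P2rx6, Adk, Adcy6 and Adcy9, and their part in those falls was not tested.

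Only some of the monocyte and macrophage markers went the other way. Of 8 markers, 3 rose (Adgre1 by 1.27, Ms4a7 by 1.15 and Ccr2 by 0.89 log2 units) and none fell, beside 21.5% and 22.6% of all rows. The other 5 were not called, with differences of 0.73 (Csf1r), 0.13 (C1qb), 0.02 (C1qa), -0.12 (Cx3cr1) and -0.30 (C1qc). The summed level was 11.40 to 12.36 in PBS and 12.01 to 13.04 in SP, with overlap. Each marker was above the Y-linked rows in at least 1 array. The lowest SP array was SP replicate 3, at 12.01, below PBS replicates 1, 3 and 4 (12.36, 12.25 and 12.20). The part of these cells in the values of the 9 genes, and in those of P2ry2 and P2ry6, was not tested. Markers of T and NK cells (Cd3d and Cd247 of 9 rose, 8.90 to 9.77 and 9.03 to 10.56), of eosinophils and mast cells (Prg2 and Tpsb2 of 10 rose and Kit fell, 9.996 to 10.36 and 9.49 to 9.86, with Epx and Fcer1a no higher than the Y-linked rows in any array) and of fibroblasts and smooth muscle (Dcn of 9 fell, 12.23 to 12.82 and 11.65 to 12.91) changed in few genes.

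**Figure D4:**
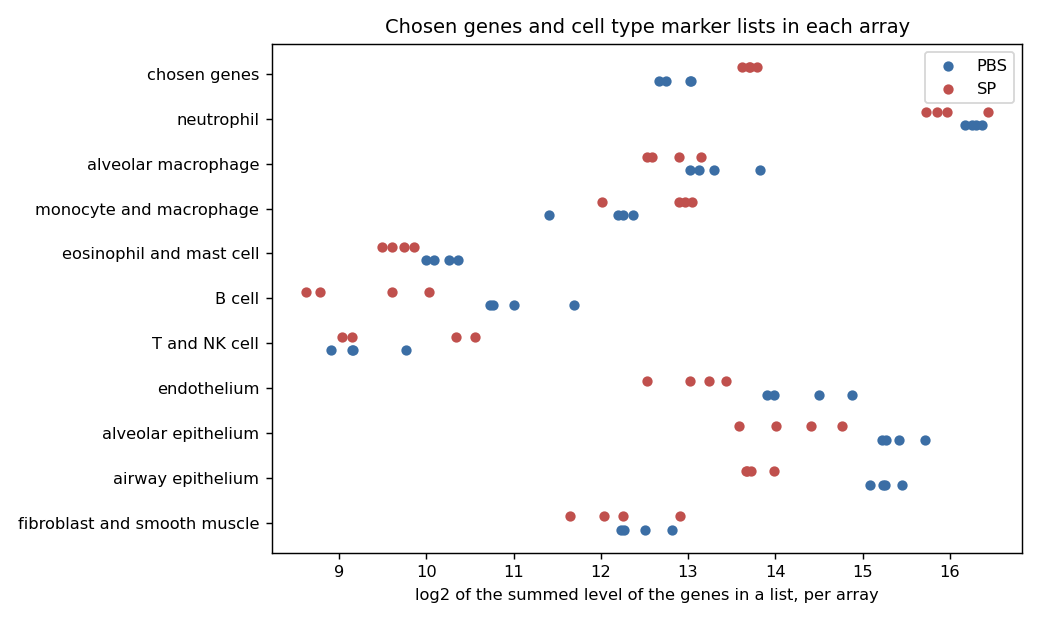
Log2 of the summed level per array (x axis) of the 9 adenosine and purinergic genes and of 10 cell type marker lists, with 4 PBS arrays in blue and 4 SP arrays in red. The purinergic sum lies at 12.66 to 13.03 in PBS and 13.62 to 13.79 in SP, and the eosinophil and mast cell, B cell, endothelial and both epithelial lists are lower in every SP array than in any PBS array. In the eosinophil and mast cell list the sum mostly follows its brightest gene, Kit (means 9.72 in PBS and 8.97 in SP), and 6 of its 10 markers had higher means in SP.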

How the data were processed

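The authors ran 1 Affymetrix Mouse Gene 1.1 ST array per sample and normalised them together by robust multi-array averaging (background removal, correction for probe GC content and sequence, quantile normalization, then median polish) on custom probesets. The deposited values are log2 expression, range 3.64 to 14.45, so a change in total RNA cannot be seen, and the number of arrays limits their precision. The labels also name Affymetrix Expression Console and Partek.

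All 8 columns were used. Symbols came from RefSeq accessions (GRCm38.p6) and covered 19915 of 24625 rows (80.9%). No genome build is attached to the values. SP was compared with PBS by limma 3.58.1 (R 4.3.3), two-sided, without covariates, with Benjamini-Hochberg adjustment over all rows. The fit was tested on simulated data for SP against PBS with 24625 rows, 200 of them changed, and independent noise in each array. It recovered 72% of rows changed 1 log2 unit and 93% of rows changed 2 log2 units, with 9 false calls among the unchanged. In the real data 44.1% of rows were called and single arrays departed in many rows, so these figures do not give its performance there.

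The 10 genes, the lists and the markers were chosen with earlier results of these data known, and 1 marker gene is not reported here. Named were the 10 genes, in each list the 2 largest rises and 2 largest falls at 2-fold and the gene with the highest mean, genes in counts of 5 or fewer, picked after their values were seen, and the 3 rows most like the genes with the largest and lowest difference. Flags used Dixon's ratio (0.829 for 4 samples). Alternatives were the methods' one-way ANOVA, a trended robust prior, the replicate block, array weights, 2 other scalings, leaving out dim rows, 1 row per symbol and leaving out samples. Figures used Python 3.11.15.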

Additional observations from a re-analysis of the deposited data

Results flagged for a closer look

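In P2ry14, PBS replicate 1 (7.61) lay far from the other PBS arrays (6.64 to 6.77), which makes the PBS mean higher than those 3 arrays and the SP minus PBS difference smaller. P2ry6 had a low PBS replicate 2 (7.38, the others 7.93 to 8.03), and Cd38 had a high PBS replicate 1 (10.46, the others 10.19 to 10.22). These 3 came from 64 groups of 4 arrays that were checked, and chance alone flags about 1 in 20.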

How the results depend on the processing

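Under 17 alternatives to the fit, the 3 genes with separated groups (Adora2a, Adora2b and P2ry14) were called higher at 2-fold each time, beside 5.79% to 11.7% of all rows. None of the 9 was called lower, beside 16.4% to 36.2%. The genes were selected with this comparison in these same arrays known, so the repeated calls are a description and no support. Genes called higher, 3 as deposited, numbered 8 with centred arrays, 5 with another quantile normalization and 5 with array weights. They numbered 5 without both PBS replicate 2 and SP replicate 3 (19.3% of all rows), and 3 to 5 without any 1 array (14.3% to 21.5%). Genes with no overlap and SP higher numbered 7 with centred arrays (54.8% of all rows), 5 with another quantile normalization (21.4%), 5 without both (33.2%), and 3 to 5 without any 1 array (28.3% to 33.1%). Their median difference of 0.46 was 0.71 with array weights, 0.74 with centred arrays, 0.83 with another quantile normalization, 0.80 without both, and 0.48 to 0.67 without any 1 array. Of the other pathway genes, rises numbered 30 with centred arrays and 10 to 18 without any 1 array, rises of at least 2-fold 6 to 11 without any 1 array, and falls of at least 2-fold 9 after another quantile normalization. Their median was 0.082 with centred arrays and -0.41 with dim rows left out. Over all rows, 5306 rises became 14219 with centred arrays, 2971 with dim rows left out and 3528 to 5301 without any 1 array, rises of at least 2-fold went from 1568 to 2375 with centred arrays, and the median went from 0.10 to 0.079 with array weights, 0.38 with centred arrays, 0.016 after quantile normalization, -0.15 with dim rows left out, 0.080 with 1 row per symbol, 0.068 without both, and 0.078 to 0.11 without any 1 array. Gnai2 was called lower at -0.29 with another quantile normalization, and turned from -0.08 to 0.20 with centred arrays. That 1 amount is added to all SP differences follows from centring, and the other causes were not tested. Of 391 results for single named pathway genes, 352 kept direction and call. The labels link an SP sample to a PBS sample by replicate number only. Deviations of same-numbered arrays from their group means correlated at 0.016, 0.030, 0.35 and -0.27. With 4 arrays in a group, these values cannot decide whether the samples were paired. With the replicate block, 14 other pathway genes rose and 30 fell, in place of 16 and 33. Adora1 had no value with dim rows left out. Signals near background limit Adora1, Ada and Adora2a in PBS.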
